A study of Mus musculus with 4 samples.

Results

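The untreated difference between mouse embryonic fibroblasts (MEF) with and without *Hmga2* was examined in 2 total RNA libraries of a series of 4: *Hmga2*+/+ MEF in water and *Hmga2*-/- MEF in water. The genes compared were those whose transcript with the longest gene body reached at least 1 RPKM in 1 of these 2 libraries, where RPKM is a read count corrected for transcript length and sequencing depth. This left 11094 of the 25909 genes that had a named transcript, of which 10522 were protein-coding. The comparison addresses how the basal transcript levels of fibroblasts differ when *Hmga2* is missing. Both lines were C57BL/6 MEF from whole embryos at embryonic day 15.5, with head, limbs, tail, viscera, liver and heart removed, and both were immortalized with the SV40 virus. They were grown in 10% FCS and starved overnight in 1% FCS before water was added, and the other pair of libraries got 10 ng/ml TGFB1 for 24 h in place of water. The title of the knockout sample names *Hmga2*-/-, whereas its genotype field reads Hmga-/-. Each genotype was 1 line and each condition 1 library, so the genotype, the line and the library cannot be told apart, no test was possible, and every statement compares 2 libraries.

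Depth was nearly equal, with 56140000 mapped reads in the *Hmga2*+/+ library and 56610000 in the *Hmga2*-/- library, recovered from the steps of the RPKM values. The median gene of the comparison had 1106 and 1098 reads. Reads were used to give a 95% interval for each ratio, which covers counting error only. A gene was called higher or lower when its RPKM differed at least 1.5-fold, and pairs of values are given in the order *Hmga2*+/+, then *Hmga2*-/-. Over the protein-coding genes the log2 levels of both libraries correlated with a Pearson's r of 0.982, a description across genes of 2 libraries. Of all genes, 145 lay just inside the limit of 1 RPKM, with a maximum of 1 to 1.1 RPKM, and 177 just outside it, with 0.9 to 1 RPKM.

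HMGA2 is a small chromatin protein that binds A/T-rich DNA in the minor groove with its AT-hooks. It is abundant in embryonic mesenchyme and silenced in most adult tissues, in part through let-7 microRNAs, and mice without it are small (the pygmy phenotype). MEF are a mixed mesenchymal culture that makes collagen, keeps position-related transcription factors of the embryo and can turn into contractile myofibroblasts.

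The deleted gene was checked first. *Hmga2* lies on the minus strand of chromosome 10 at 120361275-120476935 (mm10). It had 14.8 RPKM (3544 reads) with the intact gene and not a single read (0) without it. With 0 reads taken as 3 it was 1191-fold lower, and the counting interval of its log2 difference ended at -9.92. The TGFB1 pair had 40.7 RPKM and 0. All 3 of its transcripts were at 0 RPKM in both *Hmga2*-/- libraries. *Mir763*, a microRNA hairpin within the *Hmga2* gene body on the same strand, followed it, with 37.1 RPKM from 248 reads against 0 reads. With 0 reads taken as 3 it was 83.4-fold lower, and its interval ended at -6.07.

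*Igf2bp2* showed the next largest decrease among genes without a close copy. This gene encodes an RNA-binding protein of insulin-like growth factor 2 mRNA and is a textbook target of HMGA2. It had 24.9 RPKM in *Hmga2*+/+ and 0.722 RPKM in *Hmga2*-/-, a log2 difference of -5.11 (counting interval -5.35 to -4.88), and 22.7 and 0.354 RPKM in the TGFB1 pair. Its 3 transcripts were 31.6-fold to 34.5-fold lower in water, so the decrease did not depend on the transcript chosen. The paralogs did not share it: *Igf2bp1* had 4.54 and 4.92 RPKM and *Igf2bp3* 6.58 and 6.08 RPKM. *Hmga1*, the sister AT-hook gene, was also lower, at 7.22 and 4.15 RPKM (log2 -0.80, interval -0.98 to -0.62). In the list of HMGA proteins and the Lin28-Igf2bp axis, 3 of 5 genes were thus lower and 0 higher, 1 of the 3 being the deleted gene, against 2.58% of all 11094 genes that were lower and 2.6% that were higher. *Plag1*, a zinc finger growth regulator that lies with HMGA2 in a growth pathway of small body size, had 2.18 and 0.649 RPKM, and *Ccnd2*, a G1 cyclin, had 12 and 5.90 RPKM. Both were lower in the TGFB1 pair too, at 1.93 and 0.554 RPKM and 14.7 and 6.61 RPKM.

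The stretches just before the start of *Igf2bp2*, which showed the largest decrease after *Hmga2* among genes without a near-identical copy, of *Gpc3* and *Lepr*, which were among the largest increases, and of *Acta2* and *Myl9*, contractile genes chosen because a motif lies there, are shown as they stand in RefSeq (GRCm38.p6), 150 bases each, 5′ to 3′ on the strand of the gene. Capitals mark CArG-type motifs, the element bound by serum response factor, with at most 1 C or G in its central A/T run, searched in a frame that reads alike on both strands. The plain CArG box occurred in 0.916% of the same 150-base stretch of 32851 RefSeq promoters, and the relaxed form in 5.10%.
*Igf2bp2* (chr16:22163300-22163449, minus strand): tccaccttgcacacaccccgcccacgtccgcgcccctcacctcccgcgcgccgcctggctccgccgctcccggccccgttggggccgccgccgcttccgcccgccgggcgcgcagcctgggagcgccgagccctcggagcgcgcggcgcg
*Gpc3* (chrX:52613975-52614124, minus strand): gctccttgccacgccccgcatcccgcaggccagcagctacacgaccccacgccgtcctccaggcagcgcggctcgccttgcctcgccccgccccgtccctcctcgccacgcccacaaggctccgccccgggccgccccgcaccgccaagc
*Lepr* (chr4:101717257-101717406, plus strand): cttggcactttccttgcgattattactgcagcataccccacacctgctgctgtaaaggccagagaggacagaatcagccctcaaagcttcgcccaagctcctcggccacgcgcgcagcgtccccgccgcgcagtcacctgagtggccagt
*Acta2* (chr19:34255374-34255523, minus strand): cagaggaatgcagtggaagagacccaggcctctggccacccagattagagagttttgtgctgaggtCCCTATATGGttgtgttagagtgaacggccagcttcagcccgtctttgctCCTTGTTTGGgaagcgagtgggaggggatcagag
*Myl9* (chr2:156775314-156775463, plus strand): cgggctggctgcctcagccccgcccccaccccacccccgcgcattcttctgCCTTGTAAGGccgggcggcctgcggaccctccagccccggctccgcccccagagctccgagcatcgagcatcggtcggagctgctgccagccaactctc

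The *Igf2bp2* stretch was 83.3% G and C, and its longest run of A and T letters was 2 bases, a length that 3.45% of all promoters stayed at or under. *Gpc3* had the same longest run of 2 bases at 78% G and C, and *Lepr* a run of 7 bases, which 36.0% of promoters reached or passed. The median of all 32851 promoters, whether or not their genes were expressed here, was 54% G and C and a longest run of 6 bases. For genes of the comparison with a RefSeq promoter, the median over 250 bases was 60.8% G and C. *Acta2* carried 2 relaxed CArG motifs and *Myl9* 1 in the stretch shown, whereas *Cnn1* and *Zyx*, the other 2 higher contractile genes with a RefSeq promoter, carried 0. These letters describe the windows and say nothing about where a protein sat in these cells.

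Of 11094 genes, 288 were higher in *Hmga2*-/- (2.6%) and 286 lower (2.58%), so the numbers were nearly balanced. The median log2 difference was -0.02. The classes differed widely. Among 10522 protein-coding genes, 212 were higher (2.01%) and 163 lower (1.55%), and the counting interval lay on 1 side of 0 for 211 of the 212 and 161 of the 163. For 114 of the higher and 82 of the lower protein-coding genes the whole interval lay past 1.5-fold. Of 218 microRNA hairpins, 53 were higher and 73 lower on a median of 7.5 reads in *Hmga2*+/+, and the interval left 0 for only 11 and 15 of them. Of 72 small nucleolar RNAs, 6 were higher and 34 lower on a median of 12 and 8.5 reads, and the interval left 0 for 1 and 6 of them. Taken gene by gene, calls among these short RNAs were therefore mostly within counting error. The small nucleolar RNAs as a class leaned lower, with a median log2 difference of -0.51. The gene groups described next hold protein-coding genes unless stated. The counts of every group are to be read against the 2.01% and 1.55% of all protein-coding genes, and for groups of low genes against 6.53% and 6.37% of those with a mean under 2 RPKM. Fewer cells of a type and less RNA per cell cannot be told apart in such bulk libraries.

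**Figure D1:**
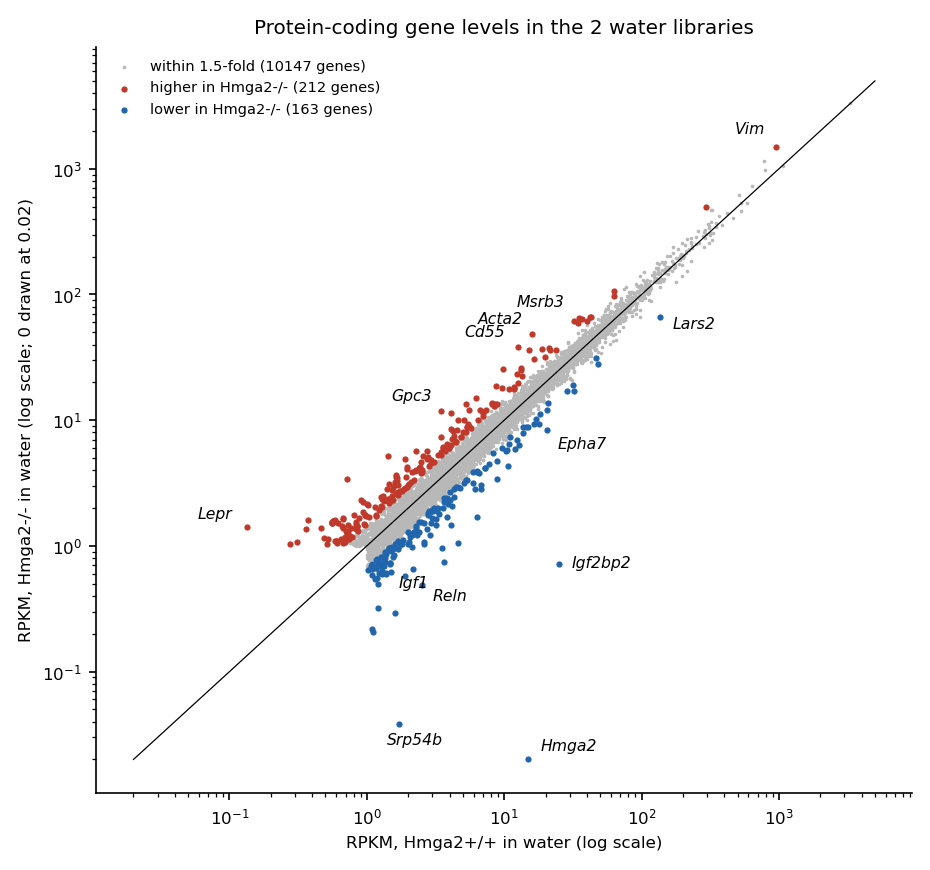
Level of each protein-coding gene in *Hmga2*+/+ (x axis) and *Hmga2*-/- (y axis) in water, in RPKM on log axes. Each point is 1 gene, red where it was at least 1.5-fold higher (212 genes) and blue where it was at least 1.5-fold lower (163 genes), the line marks equality, and *Hmga2*, *Igf2bp2* and *Srp54b* stand farthest from it.

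The 15 largest increases among protein-coding genes were headed by *Lepr*, the leptin receptor, with 0.135 RPKM in *Hmga2*+/+ and 1.42 RPKM in *Hmga2*-/-, 10.5-fold higher on 31 and 328 reads. All 5 of its transcripts were higher, by 9.40-fold to 11.9-fold. *Angptl7*, a secreted angiopoietin-like protein, followed with 0.720 and 3.41 RPKM, and *Dio3*, the deiodinase that inactivates thyroid hormone, with 0.372 and 1.62 RPKM. *Gpc3*, a cell-surface heparan sulfate proteoglycan whose loss causes overgrowth, had 3.46 and 11.8 RPKM (3.42-fold higher, log2 1.77, interval 1.62 to 1.93). *Cd55*, which shields cells from complement, had 12.7 and 37.9 RPKM, and *Nog*, the BMP antagonist noggin, 0.464 and 1.38 RPKM. *Coch*, a secreted matrix protein, had 4.10 and 11.3 RPKM, and *Cav3*, the caveolin of muscle, 0.309 and 1.07 RPKM. *Pld5* (0.361 and 1.35 RPKM) and *2200002D01Rik* (1.43 and 5.19 RPKM) were also among them, and *Acta2* and *Actg2* are described with the contractile genes. In 14 of these 15 genes the TGFB1 pair was past 1.5-fold in the same direction. The exception was *Cav3*, with 0.741 and 0.730 RPKM there, and *Dio3* had only 0 and 4 reads in that pair.

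The last 3 of the 15, *Pcdha6*, *Pcdha7* and *Pcdha3*, belong to the clustered alpha protocadherins on chromosome 18, neuronal adhesion proteins whose transcripts share their constant 3′ exons. All 13 measured members of the cluster were higher, between 0.555 and 0.907 RPKM in *Hmga2*+/+ and between 1.53 and 2.30 RPKM in *Hmga2*-/-, with log2 differences of 1.34 to 1.46. They hold nearly the same reads, with 167 and 465 for both *Pcdha6* and *Pcdha7*, and count as 1 locus. In the TGFB1 pair this locus lay at 0.231 to 0.383 RPKM and at 0.658 to 0.966 RPKM.

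Of the 15 largest decreases, *Hmga2* ranked 1 and *Igf2bp2* ranked 3. *Srp54b*, on rank 2, is 1 of 3 near-identical copies of a signal recognition particle gene, so its reads are uncertain: it had 1.72 and 0.038 RPKM in water, whereas *Srp54a* had 2.43 and 2.34 and *Srp54c* 2.50 and 2.52 RPKM. Adhesion and guidance genes came next. *Cdh6*, a classical cadherin, had 1.61 and 0.295 RPKM, *Pcdh17*, a protocadherin, 1.1 and 0.206 RPKM and *Reln*, the secreted guidance glycoprotein reelin, 2.54 and 0.493 RPKM, which was 5.14-fold lower. *Kcnt2*, a sodium-activated potassium channel, had 1.08 and 0.217 RPKM. *Nkx3-2*, a homeobox repressor of the axial skeleton, had 4.60 and 1.06 RPKM. Also among them were *Tnfaip8l3* (3.53 and 0.962 RPKM), *Plag1*, *Mab21l1* (1.91 and 0.572 RPKM), *Adamts3*, a procollagen-cleaving protease (4.12 and 1.48 RPKM), and the histone gene *Hist2h2aa2* (6.32 and 1.69 RPKM), which has a near-identical copy. In 13 of the 15 the TGFB1 pair was lower past 1.5-fold as well, the exceptions being *Srp54b* and *Hist2h2aa2*.

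**Figure D2:**
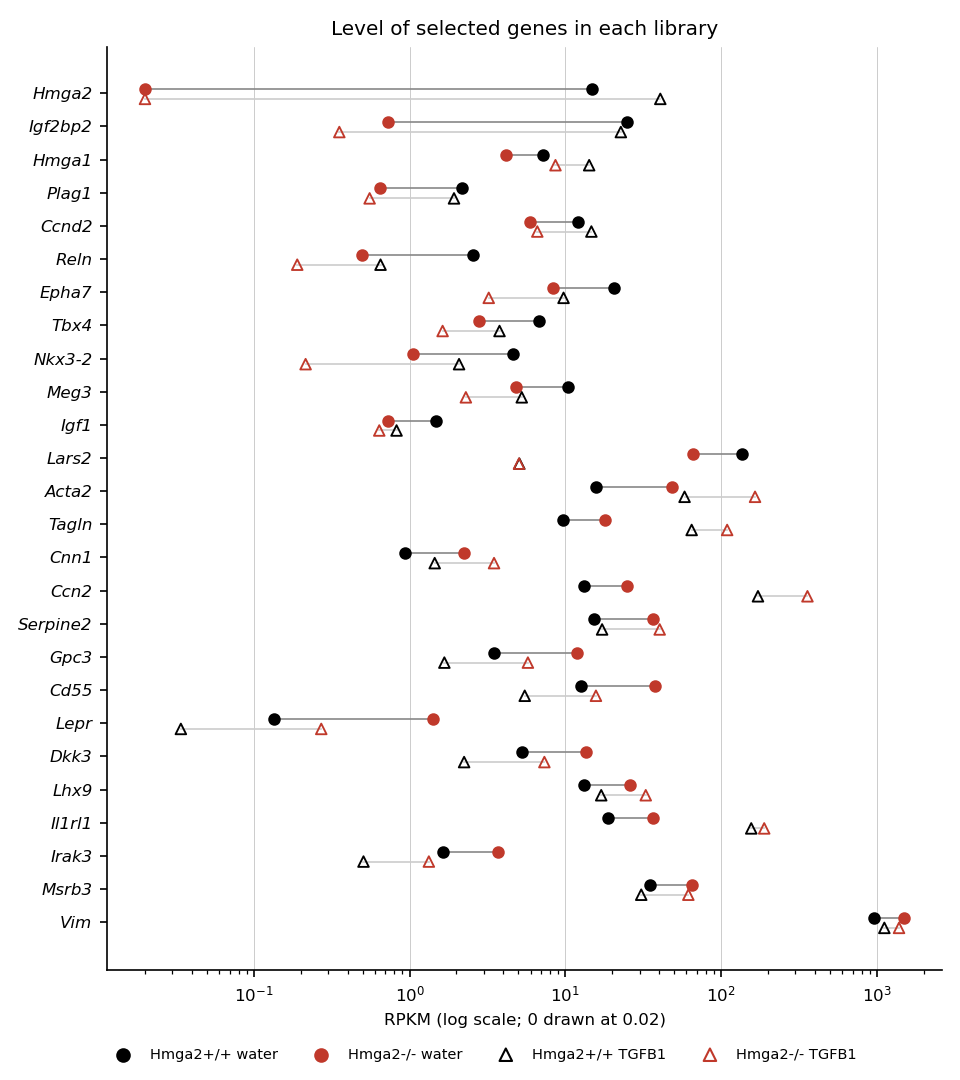
RPKM on a log axis of 26 genes in each of the 4 libraries, with circles for water and triangles for TGFB1, black for *Hmga2*+/+ and red for *Hmga2*-/-, and a line joining each pair. *Acta2*, *Gpc3*, *Cd55* and *Lepr* were higher and *Igf2bp2*, *Nkx3-2* and *Epha7* lower in *Hmga2*-/- in both pairs, whereas *Lars2* differed in water and was about equal under TGFB1.

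Some contractile genes were higher in *Hmga2*-/- MEF without TGFB1. Of 30 measured genes of the myofibroblast contractile apparatus, 6 were higher, 24 were within 1.5-fold and 0 were lower, 25 had a log2 difference above 0, and the median was 0.29, against -0.02 for protein-coding genes and 4856 of 10522 above 0. *Acta2*, smooth muscle α-actin, had 15.9 RPKM in *Hmga2*+/+ and 48.2 RPKM in *Hmga2*-/-, 3.04-fold higher (log2 1.6, interval 1.54 to 1.67). *Actg2*, the visceral smooth muscle actin, had 0.274 and 1.03 RPKM. *Tagln*, transgelin, had 9.66 and 18.1 RPKM and *Cnn1*, calponin, 0.938 and 2.23 RPKM. *Myl9*, the regulatory myosin light chain, had 12.7 and 19.6 RPKM, and *Zyx*, zyxin of focal adhesions, 8.90 and 13.5 RPKM. The 6 genes were higher in the TGFB1 pair too, where 11 of the 30 were, and there *Acta2* had 58.3 and 165 RPKM. Of the 27 members with a RefSeq promoter, 5 (18.5%) held a relaxed CArG motif in the 150 bases before the start, and *Acta2* and *Myl9* were the 2 of them that were called higher. Markers of skeletal muscle were at or near 0: 0 of 17 reached 1 RPKM, 8 were at 0 in both libraries, *Myod1* and *Myog* among them, and the list summed to 0.562 and 0.952 RPKM.

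Several matricellular genes were higher in *Hmga2*-/-, and most fibrillar collagen genes lay slightly below 0. Of 23 genes in the list of fibronectin, matricellular proteins and proteoglycans, 5 were higher and 2 lower. *Ccn1* and *Ccn2*, matricellular proteins induced by mechanical load, had 32.5 and 61.5 RPKM and 13.2 and 24.9 RPKM, and *Ccn5* had 2.54 and 5.17 RPKM. *Thbs4*, a thrombospondin, had 1.97 and 4.10 RPKM, and *Tnn*, tenascin N, 0.590 and 1.6 RPKM, whereas *Thbs2* was lower at 28.5 and 17.2 RPKM and *Lum*, lumican, at 1.08 and 0.708 RPKM. Of 25 matrix proteases and inhibitors, 3 were higher and 1 lower. Among the higher genes, *Serpine2* (15.3 and 36.4 RPKM) encodes a secreted inhibitor of serine proteases and *Plaur* (2.24 and 3.95 RPKM) the urokinase receptor, and *Adamts3* was the lower gene. Of 8 fibrillar collagens 7 lay below 0, the median was -0.18 and 0 were called in either direction. With 2.01% of all protein-coding genes higher and 1.55% lower, 0 calls in 8 genes is near the background. *Col1a1* had 325 and 272 RPKM, *Col3a1* 287 and 237 RPKM and *Fn1*, fibronectin, 465 and 404 RPKM. Under TGFB1 *Col1a1* had 363 and 363 RPKM. Of 22 elastic fibre genes 3 were higher and 2 lower, the microfibril gene *Mfap5* (0.666 and 1.65 RPKM), *Efemp1* (5.54 and 12 RPKM) and the crosslinking enzyme gene *Loxl4* (1.80 and 2.75 RPKM) being higher and *Mfap4* (2.59 and 1.08 RPKM) and *Mfap2* (10.2 and 5.67 RPKM) lower. Of 18 basement membrane genes, 1 was lower, *Col8a2* at 5.92 and 3.18 RPKM.

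Cytokine and chemokine genes were called in 1 direction only. Of 23 genes, 7 were higher and 0 lower, with a median of 0.28. *Il1rl1*, the interleukin-33 receptor, had 18.9 and 36.5 RPKM, *Ccl2* and *Ccl7*, monocyte chemokines next to each other on chromosome 11, had 6.98 and 11.7 RPKM and 2.94 and 4.54 RPKM, and *Cxcl1* and *Cxcl15*, chemokines on chromosome 5, had 4.08 and 8.51 RPKM and 3.48 and 7.38 RPKM. *Tnfrsf11b*, the decoy receptor osteoprotegerin, had 3.57 and 5.96 RPKM, and *Tslp* 0.776 and 1.18 RPKM. Only *Tnfrsf11b* of the 7 was past 1.5-fold higher in the TGFB1 pair, where *Cxcl1* had 2.19 and 2.29 RPKM and *Cxcl15* 0.914 and 0.919 RPKM. The list of interferon response and antigen presentation had 0 of 44 genes called, and 1 of 16 blood cell markers reached 1 RPKM, while *Ptprc* had 0 and 0.003 RPKM. Of 10 complement genes, 1 was higher and 2 were lower, and all 3 were called the same way in the TGFB1 pair. *Cd55* was the higher gene, and *C4b* was lower at 2.61 and 1.03 RPKM.

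Growth factor pathways held between 1 and 4 called members each. Of 17 genes of the insulin-like growth factor pathway, 1 was lower and 2 higher. *Igf1*, the growth hormone-dependent growth factor, had 1.48 RPKM in *Hmga2*+/+ and 0.727 RPKM in *Hmga2*-/- (log2 -1.03, interval -1.23 to -0.83, 627 and 310 reads), and all 6 of its transcripts were lower, by 1.53-fold to 2.05-fold. The difference was no longer past 1.5-fold with 1 RPKM added to both values, and the gene lies under a minimum of 5 RPKM. In the TGFB1 pair it had 0.825 and 0.639 RPKM and stayed within 1.5-fold. *Igfbp3*, which binds IGF in the extracellular space, had 4.59 and 10.0 RPKM and *Stc2*, stanniocalcin, which blocks release of IGF from its binding proteins, 0.668 and 1.67 RPKM. *Igf2*, the target of the IGF2BP proteins, had 51.8 and 53.1 RPKM and *Igf1r* 11.1 and 13.3 RPKM. Of 24 genes of TGF-beta and activin signalling, the activin subunits *Inhba* (11.9 and 18.2 RPKM) and *Inhbb* (0.616 and 1.53 RPKM) and their binding protein *Fst* (4.56 and 8.28 RPKM) were higher. Among 24 BMP genes *Nog* was higher and *Chrdl1*, another antagonist, lower at 1.22 and 0.613 RPKM. Among 27 Wnt genes *Dkk3* (5.27 and 13.6 RPKM), *Sfrp1* (1.6 and 3.05 RPKM), both secreted modulators, and the receptor *Fzd4* were higher and *Wnt5b* was lower. Of 10 hedgehog genes only *Gli2*, an effector of the pathway, was called, at 3.22 and 1.88 RPKM.

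Imprinted genes of the Dlk1-Dio3 region on chromosome 12 differed in opposite directions at its ends. *Dlk1*, a paternally expressed Notch-like inhibitor of differentiation, had 4.01 and 2.32 RPKM, and the maternally expressed non-coding RNAs *Meg3* and *Rian* had 10.4 and 4.82 RPKM and 7.26 and 3.37 RPKM. *Mirg* (0.582 and 0.216 RPKM) and *Rtl1* (0.137 and 0.050 RPKM) of the same region did not reach 1 RPKM and also had fewer reads in *Hmga2*-/-, with 123 against 46 reads for *Mirg* and 49 against 18 for *Rtl1*. *Dio3* at the far end was higher in water. In the TGFB1 pair *Meg3* had 5.25 and 2.30 RPKM, *Rian* 4.34 and 2.33 RPKM and *Dio3* 0 and 0.038 RPKM. Outside this region no imprinted gene of the list with at least 1 RPKM was called. *H19* had 431 and 458 RPKM, *Igf2r* 37.5 and 29.6 RPKM and *Cdkn1c* 27.4 and 20.4 RPKM. In all, 1 of 19 imprinted growth genes was higher and 3 were lower.

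Transcription factors of body position and limb identity formed the list with the most calls by number, but not by share. It was one of the longer lists, with 14.3% of its genes higher and 12.2% lower, whereas 30.4% of the cytokine and chemokine list were higher. Of 49 mesenchymal and limb or trunk factors, 7 were higher and 6 lower, and the median was 0.05. *Tbx4* and *Pitx1*, factors of the hindlimb field, were lower with 6.81 and 2.81 RPKM and 3.19 and 1.65 RPKM, and *Tbx5*, of the forelimb and heart field, was higher with 8.20 and 13.7 RPKM. *Lhx9*, a LIM homeobox gene, had 13.2 and 26.1 RPKM, *Irx1* 8.70 and 18.6 RPKM, *Emx2* 8.51 and 13.5 RPKM and *Hand2*, of limb bud and heart, 1.28 and 2.46 RPKM. *Irx3* and *Gata3* were also higher. On the lower side were *Nkx3-2*, *Meox2* (14.8 and 8.85 RPKM) and *Meis1* (1.20 and 0.688 RPKM), factors of somite and limb mesoderm. Of the 13, 4 of the higher and 5 of the lower genes were called the same way in the TGFB1 pair. Among 12 Hox genes above the limit, 11 were within 1.5-fold and *Hoxd12* was lower at 2.40 and 1.30 RPKM. Of 11 cartilage and bone genes 4 were lower and 0 higher, with a median of -0.28, whereas under TGFB1 2 were lower and 1 higher with a median of -0.03: *Sox9* (3 and 1.68 RPKM) and *Sox5* (1.12 and 0.677 RPKM) drive cartilage formation, *Hapln1* (2.88 and 1.85 RPKM) links hyaluronan in its matrix, and *Mkx* (2.59 and 1.51 RPKM) is a tendon factor. Of 14 adipogenic genes, 2 were higher, the nuclear receptor *Pparg* (0.489 and 1.15 RPKM) and lipoprotein lipase, *Lpl* (0.517 and 1.03 RPKM).

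Cell-surface adhesion and guidance genes were called in both directions. Of 23 cadherins and nectins with related adhesion genes, 5 were lower and 2 higher, and all 5 lower genes were lower in the TGFB1 pair. Besides *Cdh6* and *Pcdh17* these were *Pcdh10* (1.70 and 0.939 RPKM), *Dchs1*, a giant cadherin of tissue polarity (6.30 and 3.90 RPKM), and *Alcam* (13.6 and 7.84 RPKM). *Cdh13* was higher with 4.24 and 8.22 RPKM and *L1cam* with 5.36 and 8.88 RPKM. Of 38 axon guidance genes, 4 were higher and 2 lower. *Epha7*, an ephrin receptor, was the most abundant of those called, with 20.6 and 8.31 RPKM (log2 -1.31, interval -1.37 to -1.25), and *Epha4*, its relative, went the other way with 0.654 and 1.45 RPKM. *Ntn4*, a netrin, had 1.65 and 3.46 RPKM and *Robo2*, a slit receptor, 3.94 and 6.00 RPKM. Of 11 integrin subunits, *Itga6* was higher (2.48 and 4.00 RPKM) and *Itga11*, a collagen receptor, lower (1.56 and 0.822 RPKM).

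Sterol and lipid synthesis genes lay on the lower side, most of them by less than 1.5-fold. Of 32 genes of cholesterol and fatty acid synthesis, 4 were lower past 1.5-fold and 0 higher, but 31 lay below 0 and the median was -0.43, the lowest median of any list with 10 or more genes. Among the lower genes, *Hsd17b7*, a sterol reductase, had 9.6 and 6.06 RPKM (log2 -0.66, interval -0.76 to -0.57) and *Dhcr7*, the last step of cholesterol synthesis, 13.8 and 8.79 RPKM. *Scd2*, *Msmo1* and *Fasn* stayed within 1.5-fold with 216 and 152, 198 and 139 and 30.3 and 21.2 RPKM. Under TGFB1 the median of the list was -0.22 and 0 of its genes were called.

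**Figure D3:**
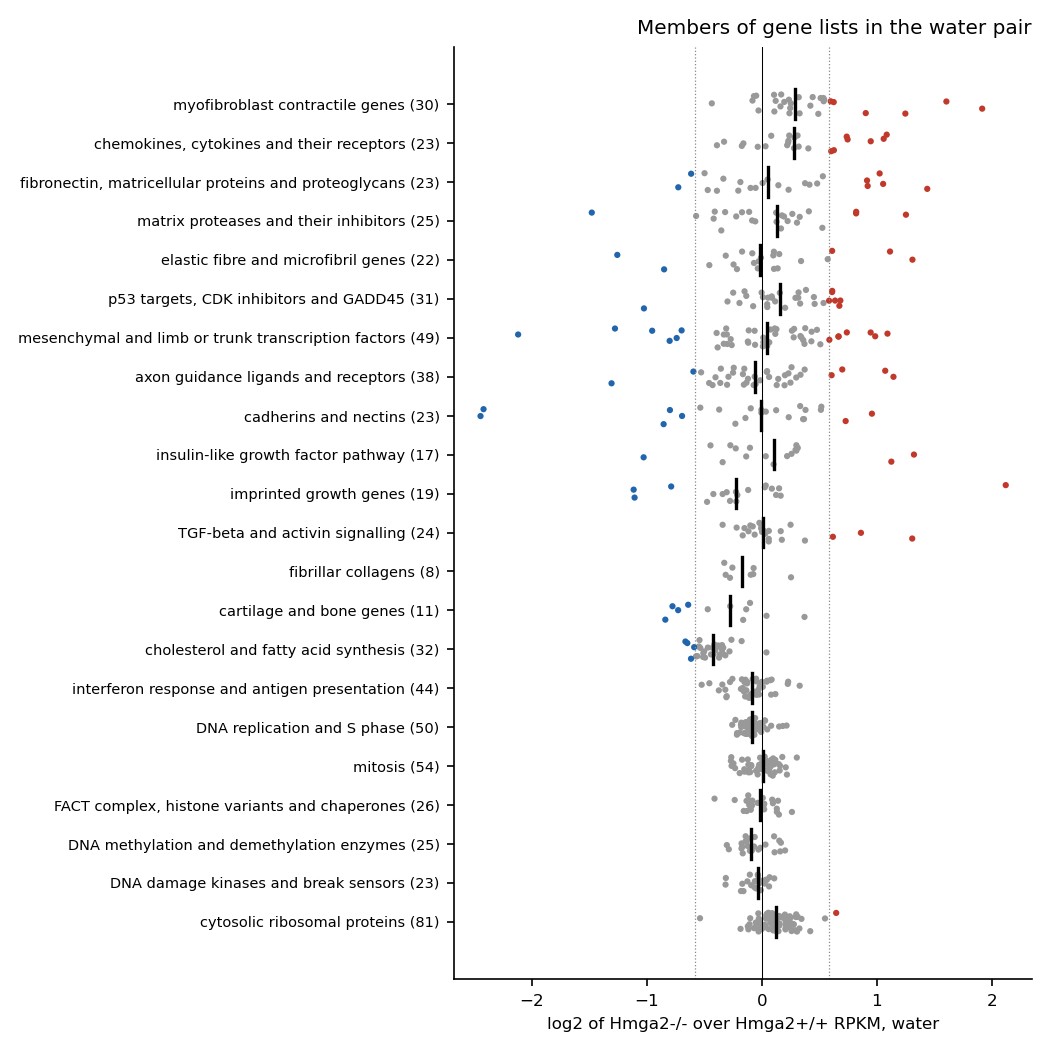
log2 of *Hmga2*-/- over *Hmga2*+/+ RPKM in water for the members of 22 gene lists with at least 1 RPKM (number in brackets), 1 point per gene, red or blue past 1.5-fold (dotted lines), with the list median as a black bar. Contractile and cytokine genes spread to the right and the sterol genes sit to the left, while the replication, mitosis and DNA damage genes cluster at 0. Points beyond 2.6 either way are drawn at that value.

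Genes of proliferation and genome maintenance differed little. In 50 genes of DNA replication, 54 of mitosis, 23 of DNA damage sensing, 26 of the FACT complex and histone chaperones and 25 of DNA methylation, 0 were called, and their medians lay between -0.09 and 0.01. Most of the genes the study assayed also stayed within 1.5-fold. *Supt16* and *Ssrp1*, the subunits of the FACT histone chaperone, had 102 and 113 RPKM and 106 and 106 RPKM. *Atm*, the DNA break kinase, had 17.7 and 17.1 RPKM, *Gadd45a* 12.3 and 14.2 RPKM, *Mtor* 8.15 and 8.46 RPKM and *Rptor* 5.73 and 5.12 RPKM. *Gata6*, a zinc finger factor, had 1.45 and 1.11 RPKM (log2 -0.38, interval -0.66 to -0.11), lower beyond counting error but within 1.5-fold. Of these genes with *Igf1*, *Acta2*, *Col1a1* and *Fn1*, *Igf1* and *Acta2* alone passed 1.5-fold in water. Among 31 p53 targets, CDK inhibitors and GADD45 genes, 6 were higher, *Fas* (4.35 and 6.77 RPKM), *Aen*, *Eda2r*, *Plk2* (11.7 and 17.6 RPKM), *Btg2* and *Gadd45g* (7.06 and 11.3 RPKM), and 1, *Ccnd2*, was lower. Under TGFB1 12 were higher. The proteasome (31 genes), the nuclear-encoded respiratory chain (77 genes) and the chaperones of the endoplasmic reticulum (28 genes) held 0 calls, and 1 of 81 cytosolic ribosomal protein genes was called, *Rps4l*, with a median of 0.12 for the list.

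The largest gain in RPKM among protein-coding genes was that of *Vim*, the intermediate filament protein vimentin, which had 958 RPKM in *Hmga2*+/+ and 1497 RPKM in *Hmga2*-/- (log2 0.64), the only 1 of the 10 largest gains past 1.5-fold besides *Ahnak*, at 295 and 495 RPKM. *Actb* (787 and 981 RPKM), *Tpm1* (325 and 472 RPKM), *Cald1* (323 and 469 RPKM) and *S100a10* (169 and 239 RPKM) also gained, with the ribosomal protein genes *Rpl13a* (784 and 1148 RPKM) and *Rpl26*, the chaperone gene *Calr* and mitochondrial *mt-Co1*. Of the 4 *Ahnak* transcripts, 3 passed 1.5-fold in water. Under TGFB1 *Vim* had 1119 and 1390 RPKM, within 1.5-fold, *Ahnak* 386 and 383 RPKM and *Rpl13a* 1088 and 1120.3 RPKM. The largest losses were *Lars2* (136 and 66.5 RPKM), *Scd2*, *Fn1*, *mt-Nd4* (525 and 464 RPKM), *Msmo1*, *mt-Nd2*, *Mgp*, an inhibitor of calcification (311 and 257 RPKM), *Col1a1*, *Ogn* (178 and 126 RPKM) and *Col3a1*. *Lars2*, a mitochondrial leucyl-tRNA synthetase gene, was the only 1 of them past 1.5-fold, in 1 of its 2 transcripts, the other having a log2 difference of -0.17. In water 2 non-coding genes were also lower, *Gm15564*, annotated antisense to other transcripts (185 and 75.2 RPKM), and *Mir6236* (49.6 and 29.4 RPKM). All 3 were far lower in both TGFB1 libraries, where *Lars2* had 5.07 and 5.04 RPKM and *Gm15564* 3.98 and 2.76 RPKM.

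Non-coding genes of 200 bases or more gave few further calls. The 3 largest decreases were *Gm15564*, *H2-K2* (2.44 and 1.01 RPKM) and *Meg3*, and the 3 largest increases *Gm21811* (0.584 and 1.47 RPKM), *Gm17501* (0.641 and 1.55 RPKM) and *Gm15892* (0.554 and 1.19 RPKM). With no length limit the largest were microRNA hairpins on very few reads, such as *Mir34a* with 1 and 9 reads, *Mir5131* with 2 and 12, *Mir6973b* with 1 and 6, *Mir6993* with 9 and 1 and *Mir199a-1* with 14 and 2.

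The TGFB1 pair came from the same lines but other libraries, so it repeats the lines and not the genotype. The limit of 1 RPKM was applied to the water columns only, and 10480 of the 11094 genes reached it in a TGFB1 library. Of the same 11094 genes, 370 were higher (3.34%) and 288 lower (2.6%) in the *Hmga2*-/- library of the TGFB1 pair. Of the protein-coding genes 284 (2.7%) and 198 (1.88%) were. Of the 212 protein-coding genes higher in water, 118 (55.7%) were higher past 1.5-fold there and 195 (92.0%) lay above 0. Of the 163 lower in water, 83 (50.9%) were lower past 1.5-fold there and 145 (89.0%) lay below 0. These shares stand against 2.7% and 1.88% of all protein-coding genes. Counted the other way, the 118 were 41.5% of the genes higher under TGFB1 and the 83 were 41.9% of those lower. Across all 10522 protein-coding genes the log2 differences of both pairs, with 0 reads taken as 3, had a Pearson's r of 0.624, again a description across genes of 4 libraries. For all genes, short RNAs included, 133 of 288 (46.2%) and 119 of 286 (41.6%) were called the same way, and 55 were called the opposite way, of which 48 had transcripts under 200 bases.

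**Figure D4:**
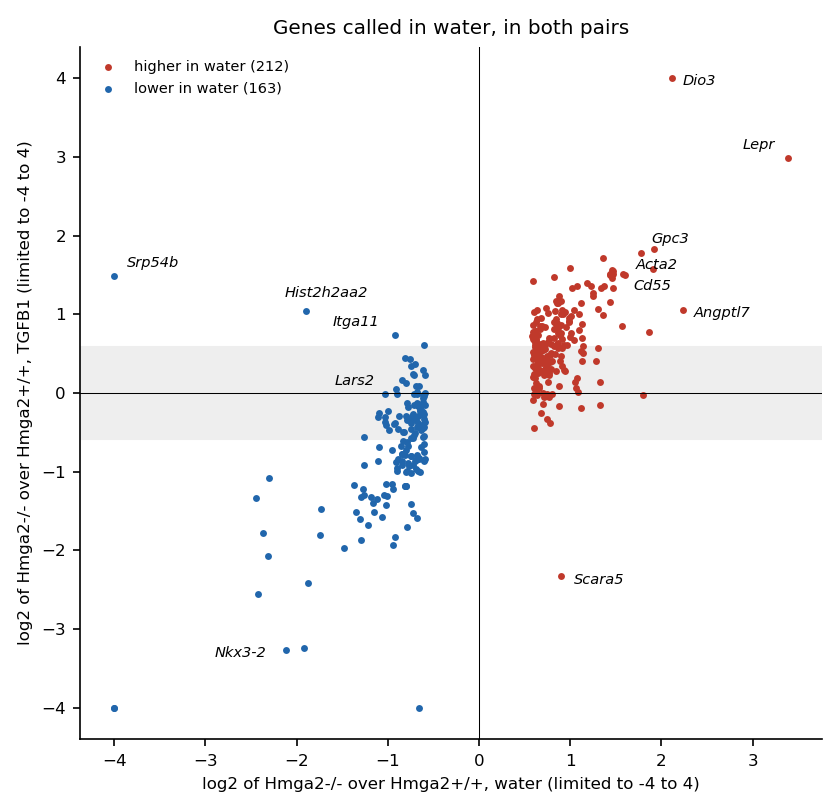
log2 of *Hmga2*-/- over *Hmga2*+/+ RPKM in water (x axis) and under TGFB1 (y axis), both limited to -4 to 4, for the 212 protein-coding genes higher (red) and the 163 lower (blue) in water. The grey band holds genes within 1.5-fold under TGFB1, 195 red points lie above 0 and 145 blue points below, and 5 genes, *Srp54b*, *Hist2h2aa2*, *Itga11*, *Scara5* and *Tnfsf9*, lie past 1.5-fold on the opposite side.

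Each of the 20 chromosomes with at least 50 genes held calls in both directions, in uneven shares. With short RNAs included, the share higher ran from 1.28% on chromosome 17 to 5.02% on chromosome 18, which holds the protocadherin cluster. The share lower ran from 1.52% on chromosome 6 to 4.9% on chromosome 12. The median log2 difference of a chromosome lay between -0.04 and 0.03. Called genes of 200 bases or more sat next to another gene called the same way in 13 runs outside the protocadherin cluster, of 2 or 3 genes each. Besides *Dlk1* with *Meg3* and *Rian*, these included *Ccn1* with *Ddah1* (2.75 and 4.88 RPKM) and the non-coding *Gm17501* on chromosome 3, *Acta2* with *Fas* on chromosome 19, and *Dkk3* with *Mical2* (1.40 and 2.81 RPKM), an actin-oxidizing enzyme, on chromosome 7. Genes around the deleted locus were looked at in the same way. Besides *Mir763*, which lies inside *Hmga2* and was lower with it, 8 genes lay within 1 Mb of *Hmga2* on chromosome 10, of which 2 were higher past 1.5-fold and 0 lower. *Msrb3*, a methionine sulfoxide reductase at 120781101-120898971, had 35.1 and 65.3 RPKM in water (log2 0.90, interval 0.85 to 0.94) and 30.7 and 61.7 RPKM under TGFB1, and *Irak3*, an inhibitor of interleukin-1 signalling at 120141654-120201537, had 1.63 and 3.69 and 0.506 and 1.33 RPKM. *Lemd3* (5.99 and 8.15 RPKM) and *Rassf3* (3.24 and 4.47 RPKM) stayed within 1.5-fold in water. In the TGFB1 pair *Lemd3* was past it with 7.69 and 12.4 RPKM, as were *Tmbim4* with 9.68 and 16.6 RPKM and *Llph* with 3.67 and 6.75 RPKM, both of which were within 1.5-fold in water.

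Low and long genes held more calls than others. Among protein-coding genes with a mean under 2 RPKM, 6.53% were higher and 6.37% lower, against 0.77% and 0.467% of those with 10 to 50 RPKM. With 50 RPKM or more, 1.77% were higher and 0.196% lower. Protein-coding genes with a body of 200 kb or more had 5.78% higher and 4.22% lower, and those of 10 to 50 kb 1.45% and 1.18%. The alpha protocadherins, which hold nearly the same reads and count as 1 locus, enter the higher share under 2 RPKM as separate genes. Several of them, such as *Pcdha6* and *Pcdha7*, also enter the higher share of 200 kb or more. Transcripts under 200 bases had 20.3% and 36.9%. Promoter base composition of the called genes is not compared, since only 50% of the higher and 45.8% of the lower genes had an entry in the RefSeq promoter table.

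**Figure D5:**
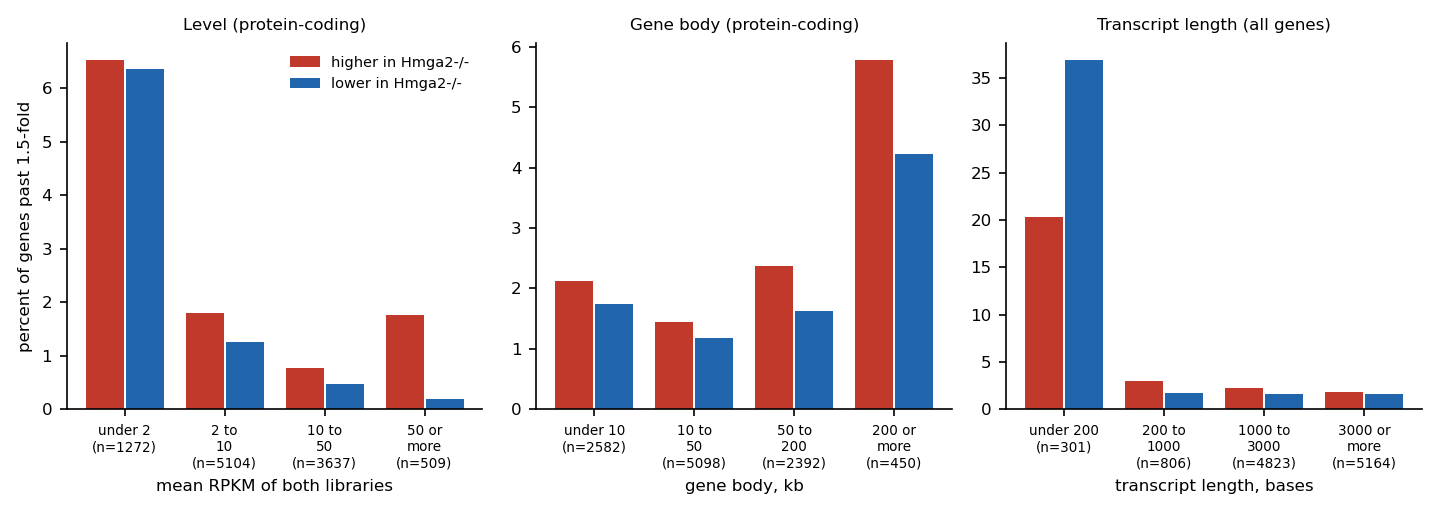
Percent of genes higher (red) and lower (blue) past 1.5-fold in *Hmga2*-/- in water, as bars from 0, by mean RPKM, by gene body in kb and by transcript length in bases, with the number of genes in each bin. The bins under 2 RPKM, of 200 kb or more and under 200 bases hold the largest shares.

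The label of fibroblasts was checked against markers. All 12 fibroblast markers reached 1 RPKM in 1 of the libraries, among them *Col1a2* (231 and 185 RPKM), *Pdgfra* (24.4 and 27.1 RPKM) and *Thy1* (5.31 and 4.11 RPKM), with 1 higher, *Vim*, and 2 lower, *Fap* (2.03 and 1.07 RPKM) and *Lum* (1.08 and 0.708 RPKM). Of 14 endothelial markers 4 reached 1 RPKM, and the defining *Pecam1*, *Cdh5* and *Tie1* had at most 0.018 RPKM, although *Tek*, an angiopoietin receptor, had 2.75 and 5.65 RPKM. Of 21 epithelial markers 3 reached 1 RPKM, *Krt19* being higher (1.90 and 4.93 RPKM), as was *Sfn* (1.69 and 3.05 RPKM), and *Dsp* lower (2.11 and 0.985 RPKM). Of 10 mesothelial markers *Krt19* alone reached 1 RPKM, and the list summed to 4.76 and 8.68 RPKM. Of 16 neural markers 4 did, *Sox2* being lower at 1.99 and 1.04 RPKM and *Stmn2* higher at 0.837 and 1.5 RPKM. The part of such cells in the called genes was not tested.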

How the data were processed

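Total RNA was made into stranded libraries (SMARTer Stranded Total RNA HI Mammalian) from 1 µg of RNA and sequenced as 75 bp single reads. The authors trimmed the reads with Trimmomatic, aligned them to mm10 with HISAT2 2.1.0, counted them per transcript on the annotated strand with HOMER and deposited RPKM values, with 1 column for each of 4 conditions. FastQC and SAMtools are also named in the submitters' processing notes. The study speaks of duplicates, and whether these were pooled is not given in the sources used here. The column headers name exons as the unit counted, whereas the methods name genes.

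A transcript took the name of the GENCODE vM21 gene on its strand that covered 50% or more of it, and 57708 of 63759 transcripts were named. For each gene the transcript with the longest gene body was kept if it had at least 1 RPKM in 1 of the 2 water columns. An RPKM of 0 was set to 0.001 for ratios. A gene was called past 1.5-fold. Whole reads were recovered from the steps of the low RPKM values, and 100% of the values tested came out within 0.1 of a whole read. These reads gave exact (Clopper-Pearson) 95% intervals of the ratio of 2 libraries. For fold values, a library with 0 reads was taken to have 3. With 1 library per condition no count model and no p-value was computed.

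The text names *Hmga2*, *Gpc3*, *Acta2*, *Igf1*, the genes the study assayed, the 15 largest increases and decreases and the 10 largest gains and losses in RPKM among protein-coding genes, the 3 largest non-coding changes each way, and called members of 57 gene lists. The members and lists were chosen with earlier results of these data known, and other genes named, such as the neighbours of *Hmga2*, near-identical copies and list genes within 1.5-fold, were picked after their values were seen. Scripts ran in Python 3.11.15 with numpy 2.4.6, pandas 2.3.3, scipy 1.17.1 and matplotlib 3.10.9 and were tested on simulated data. Of per-sample columns, 0 were left unused. RefSeq promoters (GRCm38.p6) were matched by symbol. Some genes within the named-gene rule are not reported here.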

Additional observations from a re-analysis of the deposited data

Results flagged for a closer look

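In 5 protein-coding genes the *Hmga2*-/- library was past 1.5-fold on 1 side in water and past 1.5-fold on the other side under TGFB1. The difference between the pairs was not tested, since each condition had 1 library. *Itga11*, a collagen-binding integrin subunit, had a log2 difference of -0.92 in water (1.56 and 0.822 RPKM) and 0.74 under TGFB1 (9.6 and 16.1 RPKM). *Tnfsf9*, a ligand of the tumour necrosis factor family, had -0.60 (1.09 and 0.721 RPKM) and 0.62 (1.58 and 2.42 RPKM). *Hist2h2aa2*, a histone gene with a near-identical copy, had -1.90 and 1.04. *Srp54b*, which also has near-identical copies, had -5.50 and 1.49, the latter on 0.048 and 0.135 RPKM. *Scara5*, a ferritin receptor, had 0.90 in water and -2.32 under TGFB1, where it had 1 read in *Hmga2*+/+ and 0 in *Hmga2*-/-.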

How the results depend on the processing

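No paired analysis was possible because each condition had 1 library, and for the same reason no replicate could be left out. As reported, 288 genes were higher and 286 lower. These became 164 and 148 with 1 RPKM added before the ratio, 89 and 67 with at least 5 RPKM, 2194 and 2286 with no filter on low values and 103 and 128 past 2-fold. The lower genes became 175 among transcripts of 200 bases or more and 163 among protein-coding genes, alternatives chosen after seeing the data. The share of higher genes called the same way under TGFB1, 46.2%, became 31.7% with 1 RPKM added, 35.0% with no filter, 53.7% from 200 bases and 55.7% for protein-coding genes. The share of lower genes, 41.6%, became 32.4% with 1 RPKM added, 52.2% from 5 RPKM, 31.8% with no filter, 34.4% past 2-fold, 49.1% from 200 bases and 50.9% for protein-coding genes. Distinct genes of the lists, 75 higher and 55 lower, became 47 and 28 with 1 RPKM added, 41 and 21 from 5 RPKM, 247 and 206 with no filter, and 26 and 19 past 2-fold. Adding 1 RPKM, raising the minimum or the fold shrinks these counts by construction. Lower genes outnumbered higher ones past 2-fold and with no filter. Past 2-fold this held for transcripts under 200 bases, with 41 higher and 79 lower, and not for protein-coding genes, with 58 and 43. The median log2 difference of all genes, -0.02 as reported, was 0.01 after rescaling by the median ratio and 0 with no filter. Of 175 called genes that are named or belong to a list, 113 stayed past 1.5-fold with 1 RPKM added and 166 with 0.1 RPKM added. After rescaling 170 stayed past it, as did 170 with the highest transcript. With the highest transcript 0 changed direction, whereas the other settings could not turn a called gene. The other 42 such values stayed within 1.5 times for counts, 0.1 for the median and the exact 95% binomial interval for shares. Taking the transcript with the highest RPKM gave 312 and 311, rescaling by the median ratio 310 and 263. With 1 library per condition, variation between cultures was not measured.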

Other observations

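The transcript with the longest gene body was the one with the highest RPKM for 6073 of 11094 genes (54.7%). *Gapdh* was not among the genes compared, since its chosen transcript had 0.395 and 0.518 RPKM, whereas its other transcript had 19.3 and 23.1 RPKM. Of genes left out, 175 had another transcript of at least 1 RPKM, and 3 had one of at least 10 RPKM.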
